A study of Homo sapiens with 4 samples.

Results

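The genes described here are LIN28A, LIN28B, IGF2BP1, IGF2BP2, IGF2BP3, HMGA1, HMGA2 and BCL11A, which are tied to the fetal program of blood formation or, for BCL11A, to its silencing. They were chosen by symbol, 8 of the 17630 genes analysed, and all 8 had a row in every table. RNA was sequenced from H1, an established human embryonic stem cell line, and from 3 populations that flow sorting took from H1 cultures on the way to blood. The 4 groups were the undifferentiated line (hESC), APLNR+ cells at day 2 (MES), CD31+CD34+ cells at day 4 (HEP) and CD31+CD43+ cells at day 7 (HPC). MES had received activin A at 40 ng/ml and BMP4 at 50 ng/ml for 2 days. HEP had then received VEGF at 40 ng/ml and bFGF at 50 ng/ml for 2 days, and HPC the same VEGF and bFGF with SB-431542, which blocks the receptor kinases that activin uses, for 3 further days. Each group was 1 library of 1 cell line, so values carry no replicate error, differences have no replicate check and none was tested.

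LIN28A and LIN28B are RNA-binding proteins that bind precursors of the let-7 microRNAs and block their maturation. Mature let-7 in turn represses messenger RNAs that carry its seed match, among them those of LIN28, IGF2BP and HMGA2 proteins, so that in many tissues let-7 is low early in development while these genes are on. In the blood system LIN28B, IGF2BP and HMGA2 are known as marks of fetal stem and progenitor cells, and BCL11A as a repressor of the fetal globin genes. Let-7 itself was not measured in these messenger RNA tables.

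The let-7 sequences show what the proteins and the target messages recognise. RefSeq (table of GRCh38.p14) lists 9 mature 5p sequences of the let-7 family, miR-98 included, and all 9 carry the same seed, bases 2 to 8, in capitals in these 4 examples.
hsa-let-7a-5p: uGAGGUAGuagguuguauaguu
hsa-let-7d-5p: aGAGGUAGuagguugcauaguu
hsa-let-7g-5p: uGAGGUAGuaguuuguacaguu
hsa-miR-98-5p: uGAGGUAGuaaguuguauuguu
The zinc knuckles of LIN28 proteins are known to bind GGAG in the loop side of the precursor. The letters GGAG stand between the mature arms in 9 of the 12 let-7 hairpins. The let-7g hairpin (chr3:52268278-52268361, minus strand, GRCh38.p14) has them, in capitals, and the let-7b hairpin (chr22:46113686-46113768, plus strand) does not.
MIRLET7G: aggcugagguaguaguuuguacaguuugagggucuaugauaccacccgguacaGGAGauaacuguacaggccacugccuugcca
MIRLET7B: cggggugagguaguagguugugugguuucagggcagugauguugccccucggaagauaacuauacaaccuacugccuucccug

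On the target side, the complement of the seed is CTACCTC. It was searched on the sense strand of the 3′UTR of 1 GENCODE transcript per gene, and found in 7 of the 8 genes, against 9.07% of 17260 3′UTRs. LIN28B, IGF2BP1 and HMGA2 each held 4 matches, a number reached by 12 genes (0.0695%), and LIN28A, IGF2BP2, IGF2BP3 and HMGA1 held 1 each. No match stood in the 3′UTR searched for BCL11A. These 3′UTRs were longer than the median of 968 bases, from 1347 in HMGA1 to 6206 in IGF2BP1, and longer windows hold more matches of any kind. The first match of each gene follows, with the seed match and any A after it in capitals and positions counted from the base after the stop codon.
LIN28A (905 to 911): ggagtgcacagcctattgaaCTACCTCA
LIN28B (44 to 50): cctttacccggttgcaaagtCTACCTCA
IGF2BP1 (1632 to 1638): aatgctgtgtgcgaagtaaaCTACCTCA
IGF2BP2 (1304 to 1310): agaaaaacacacagaagaagCTACCTCA
IGF2BP3 (560 to 566): aaacgtgcatttttactcaaCTACCTCA
HMGA1 (960 to 966): catttttcctctgttcacaaaCTACCTC
HMGA2 (21 to 27): ggggcgccaacgttcgatttCTACCTCA
A match describes these letters only and is not a measured site of let-7 action.

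The libraries fitted their labels at most markers. POU5F1 went from 1582 in hESC to 568 in MES, 112 in HEP and 15.4 in HPC. MIXL1 was at 57.2 in MES, CDH5 at 73.5 in HEP, and SPN, which encodes CD43, at 24.4 in HPC. APLNR, the antigen sorted for MES, was at 344 there but still at 250 in HEP. The blood gene RUNX1 was at 2.83 in HEP and no higher in HPC (2.43). PECAM1, which encodes the sorted antigen CD31, reached only 1.83 in HEP and 7.49 in HPC, and the pan-leukocyte gene PTPRC was at 0.04 or less in all 4. The neural genes PAX6 and SOX1 were at 0.03 or less, and ALB was listed at 0 throughout. SOX17, used as an endodermal marker but also made by endothelial cells, stood at 25.1 in MES and 26.9 in HEP, beside FOXA2 at 0.65 or less, and its part in the results was not tested. Each value is a gene's normalised signal, and the sums of the tables ran from 306724 in HEP to 426980 in hESC. The depth behind the values is unknown. In bulk samples, fewer cells of a type and less RNA per cell cannot be told apart.

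A gene is called higher or lower here when (value + 1) differs by a log2 of 1 or more and the higher of the 2 libraries reaches 5. That scale understates changes of low genes. Differences between libraries also followed the GC content of transcripts. For MES to HEP, Spearman's rho between difference and GC content was 0.71 across 6366 genes, which are not independent replicates. The second value given for a gene therefore has each library's trend with GC content removed. The correction uses the median GC content over a gene's transcripts, which ran from 40.4% in IGF2BP3 and 42.7% in LIN28B to 61.3% in HMGA1.

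**Figure D1:**
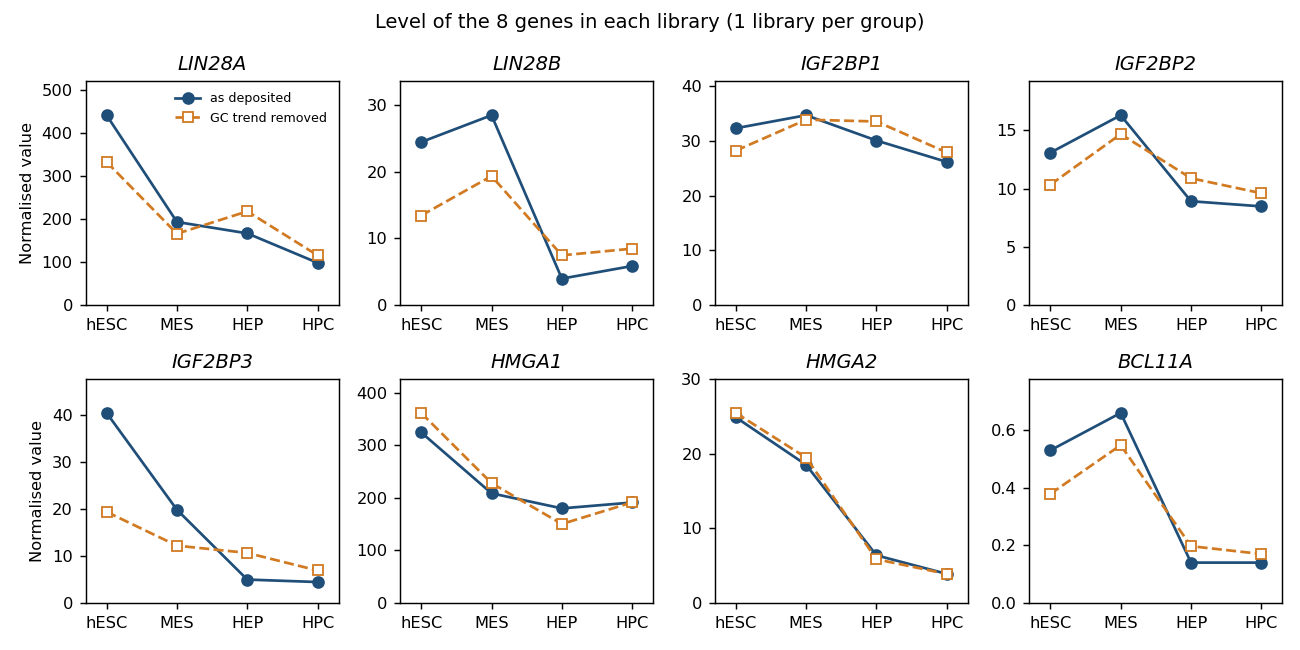
Normalised value (vertical axis, from 0) of each of the 8 genes in the 4 libraries, 1 library per group, as deposited (filled circles) and with the GC trend removed (open squares). LIN28A, IGF2BP3 and HMGA2 were highest in hESC and lowest in HPC, while IGF2BP1 stayed between 26.2 and 34.7 as deposited.

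From stem cells to day 7 blood cells, LIN28A, LIN28B, IGF2BP3 and HMGA2 were lower and no member was higher. In this comparison 15.8% of all genes were lower and 4.67% higher. Among 7437 genes at 5 or more in either library 37.4% were lower. Of the 8 members 7 reached 5, and 4 of 7 is not far from that background for so few genes. After removal of the GC trend LIN28A, IGF2BP3 and HMGA2 were lower, 3 of 8, where 6.63% of all genes were. Among the 7 members at 5 or more this is 3 of 7, against 17% of 6883 genes. Higher genes made up 6.31% there. The median log2 difference of the 8 was -1.32, beside -0.57 for genes at 5 or more, and -0.76 beside -0.00446 with the trend removed. LIN28A, IGF2BP3 and HMGA2 had smaller values at every step, an order found in 9.86% of 8174 genes at 5 or more in any library. IGF2BP3 and HMGA2 kept that order with the trend removed, where 9.23% of 7615 genes at 5 or more in any library had it.

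LIN28A, the form best known from pluripotent cells, stood at 442, 194, 167 and 98.7 in hESC, MES, HEP and HPC. It was among the most abundant messages in each library, at rank 168 of 17630 in hESC and 424 in HPC. The hESC value was thus 4.48 times that of HPC (log2 difference -2.15, or -1.52 with the GC trend removed). Most of this difference lay at the first and last steps, with log2 differences of -1.19 from hESC to MES and -0.76 from HEP to HPC. The step from MES to HEP was -0.21 as deposited and 0.39 with the GC trend removed, so its sign depended on that choice. LIN28A met the rule from hESC to MES as deposited, where 3.7% of all genes were lower, and was just short of it with the trend removed (334 in hESC against 166 in MES), where 2.19% were.

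LIN28B, the paralogue tied to fetal blood stem cells, had another order of levels. It stood at 24.4 in hESC and 28.4 in MES, and at 3.98 in HEP and 5.87 in HPC. As deposited, the 2 earlier libraries were thus high and the 2 later ones low. From MES to HEP the log2 difference was -2.56, the largest of the 8 genes there as deposited, while HMGA2 had the largest with the GC trend removed. In that step 13.9% of all genes were lower, and 33.9% of 7225 genes at 5 or more. Genes within 1 point of its GC content (512 genes) had a median of -1.44 and quartiles of -2.03 and -0.95. With the GC trend removed LIN28B still met the rule at -1.26, where 4.93% of all genes were lower. Corrected by the GC content of the 1 transcript whose 3′UTR was searched, 38.1%, it was at -0.85 and did not. From hESC to HPC the log2 difference of LIN28B was -1.89 as deposited, but -0.61 with the GC trend removed. By the GC content of that 1 transcript it was -0.19, so its size over the whole course depended on the correction.

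The ratio of LIN28B to LIN28A within a library is free of any scaling between libraries. It was 0.0552 in hESC, 0.147 in MES, 0.0238 in HEP and 0.0595 for HPC. The balance was therefore most towards LIN28B in MES, where the ratio was 2.66 times that in hESC and 6.17 times that in HEP. With the GC trend removed MES still had the highest ratio (0.116) and HEP the lowest (0.0342). Corrected by the GC content of 1 transcript per gene, LIN28B stood at 11.3, 16.7, 8.79 and 9.75 along the 4 libraries. LIN28A then stood at 353, 180, 202 and 111. By that reading the ratio was highest in MES with HPC close to it, and lowest in hESC rather than HEP. The labels do not state whether the values are scaled by transcript length, so the ratio itself depends on that and its changes between libraries do not.

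IGF2BP1, IGF2BP2 and IGF2BP3 encode paralogous proteins that bind messenger RNAs, protect them from decay and act as readers of the m6A mark. The paralogues differed in how much their levels varied. IGF2BP3 stood at 40.4, 19.8, 4.96 and 4.44 in hESC, MES, HEP and HPC, which made it 9.10 times higher in hESC than in HPC (log2 difference -2.93). It met the rule from MES to HEP (-1.80) as deposited, but genes within 1 point of its GC content had a median of -1.76 there, and with the trend removed the difference was -0.18. From hESC to HPC it remained lower with the trend removed (19.4 against 6.89, log2 difference -1.37).

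IGF2BP1 was the steadiest of the 8 genes, with 32.3 in hESC, 34.7 in MES, 30.1 in HEP and 26.2 for HPC. Its highest value was 1.33 times its lowest, and 4.44% of 8174 genes at 5 or more in any library had a ratio that small or smaller. After removal of the GC trend that ratio was 1.21. IGF2BP1 carries 4 let-7 seed matches, as many as LIN28B and HMGA2, whose highest values were 7.15 and 6.40 times their lowest, or 2.59 and 6.56 times with the trend removed. IGF2BP2 had values of 13.1, 16.3, 8.91 and 8.47 along the course and met the rule in no comparison.

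Within the sum of the 3 IGF2BP values, IGF2BP3 made up 47.1%, 27.97%, 11.3% and 11.4% along the 4 libraries. The share of IGF2BP1 was 37.7%, 49.0%, 68.4% and 67.0%. IGF2BP3 was thus the leading paralogue in hESC only, and IGF2BP1 led in the other 3 libraries. Without the GC trend IGF2BP1 led in hESC too (48.8%, against 33.4% for IGF2BP3), and the share of IGF2BP3 still went down, to 15.5% in HPC. The ratio of IGF2BP3 to IGF2BP1 was 7.37 times higher in hESC than in HPC as deposited, and 2.78 times with the trend removed.

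**Figure D2:**
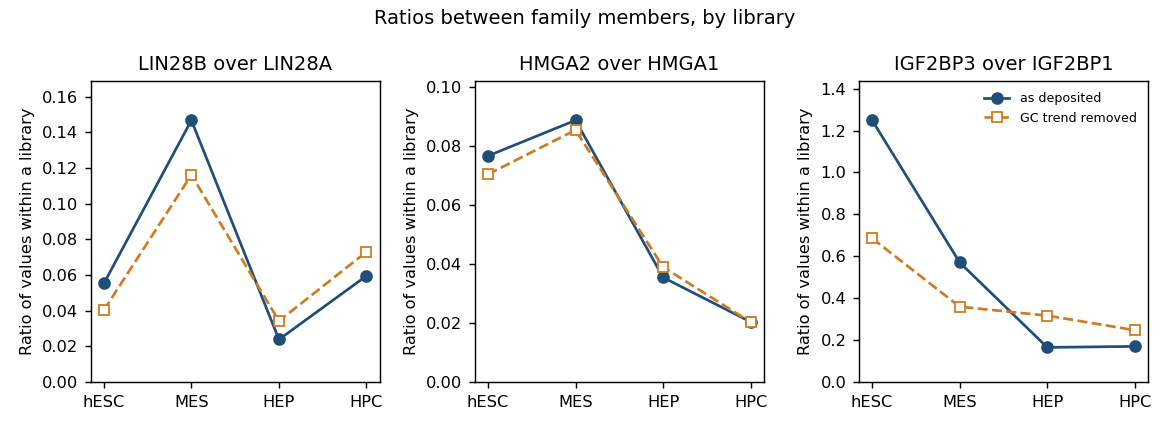
Ratio of the values of 2 family members within each library (vertical axes, from 0), as deposited (filled circles) and with the GC trend removed (open squares). The LIN28B to LIN28A ratio was highest in MES, and the HMGA2 to HMGA1 ratio went down from 0.0888 in MES to 0.0204 in HPC.

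HMGA1 and HMGA2 are small chromatin proteins that bind AT-rich DNA, HMGA1 in most dividing cells and HMGA2 mainly in embryonic and fetal tissue. HMGA1 stood at 325, 209, 180 and 191 in hESC, MES, HEP and HPC and met the rule in no comparison. It ranked between 209 and 267 from the highest in every library. HMGA1 has many processed pseudogenes, and reads shared with them leave its level uncertain.

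HMGA2 stood at 24.9, 18.5, 6.38 and 3.89 along the course, each library below the one before it. From hESC to HPC its log2 difference was -2.40, and -2.44 with the GC trend removed, while genes within 1 point of its GC content had a median of 0.04. From MES to HEP it was -1.40, and -1.58 with the trend removed. HMGA2 transcripts differ widely in GC content, with a median of 56.5% but 45.3% in the long-3′UTR transcript searched for let-7 matches. Corrected by the latter value, HMGA2 was still lower from hESC to HPC (-1.61), but from MES to HEP it was at -0.60 and did not meet the rule. Which HMGA2 transcript these cells used is not known from the tables.

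The ratio of HMGA2 to HMGA1 was 0.0767 and 0.0888 in hESC and MES, and 0.0355 and 0.0204 in HEP and HPC. As deposited, the 2 later libraries thus had the lower ratios, and the hESC ratio was 3.77 times that of HPC. It was 3.47 times with the GC trend removed. Corrected by the GC content of the transcript searched, HMGA2 stood at 16.7, 15.0, 9.62 and 4.80 along the 4 libraries. HMGA1 then stood at 353, 233, 149 and 188. By that reading HPC still had the lowest ratio, but the ratio in HEP was not below that in hESC.

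BCL11A was low, at 0.53 in hESC, 0.66 in MES and 0.14 in both HEP and HPC. It never reached the minimum of 5, so it could not be called in either direction. In HPC the fetal globin genes that BCL11A is known to repress, HBG1 and HBG2, stood at 655 and 1509. The embryonic HBE1 was at 442, and the adult genes HBB and HBD were at 8.32 and 170. HBG1 and HBG2 are near-identical, so the split between them is uncertain. No globin gene reached 5 in the 3 earlier libraries.

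**Figure D3:**
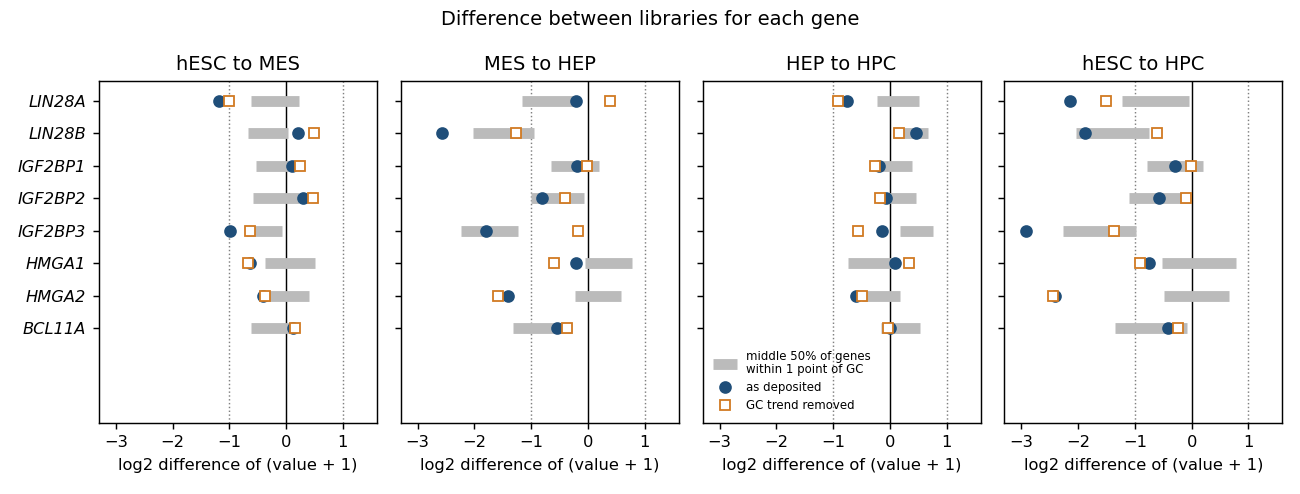
Log2 difference of (value + 1) for the 8 genes in 4 comparisons (horizontal axes), as deposited (filled circles) and with the GC trend removed (open squares), 1 library per group. Grey bars span the quartiles of genes within 1 point of the same GC content and dotted lines mark a difference of 1 in size. HMGA2 lay left of its bar from MES to HEP and from hESC to HPC, whereas IGF2BP3 lay inside its bar from MES to HEP.

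By step, 1 of 8 members was lower and 0 higher from hESC to MES, where 3.7% of all genes were lower and 3.79% higher. With the GC trend removed 0 of 8 were lower, where 2.19% of all genes were lower and 4.07% higher. From MES to HEP 3 were lower (LIN28B, IGF2BP3 and HMGA2), where 13.9% of all genes and 33.9% of those at 5 or more were lower. Of the 8 members 7 reached 5, and 3 of 7 stands near the latter background. After removal of the GC trend 2 were lower (LIN28B and HMGA2), again with 7 members at 5 or more. There 4.93% of all genes and 12.8% of those at 5 or more were lower. In this step 0 members were higher, where 3.32% of all genes were higher, or 3.65% with the trend removed. From HEP to HPC none met the rule in either direction, where 3.01% of all genes were higher and 3.57% lower, or 2.67% and 3.52% with the trend removed. In that last step LIN28A had the largest difference of the 8 (-0.76, or -0.91 with the GC trend removed). Each library enters 2 of the 4 comparisons, so these are not independent.

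**Figure D4:**
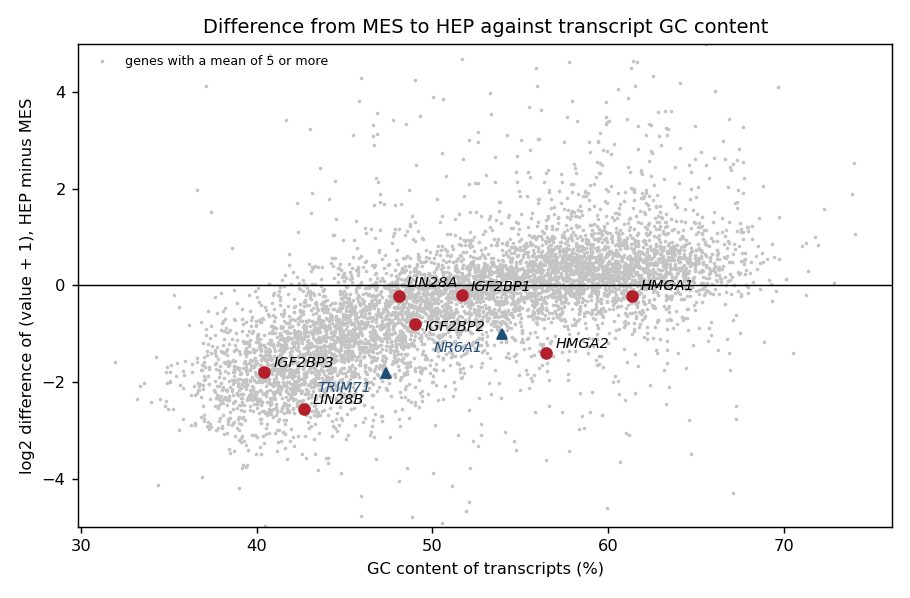
Log2 difference of (value + 1) from MES to HEP (vertical axis) against GC content of transcripts (horizontal axis, %) for 6366 genes with a mean of 5 or more (grey), 19 of which lie outside the axis range. Red circles are the 7 members at 5 or more in any library and blue triangles the let-7 targets TRIM71 and NR6A1. LIN28B, TRIM71 and HMGA2 lie below most genes of like GC content.

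The other genes of the pathway were read from fixed lists. Of 19 genes of let-7 maturation and decay, 0 were higher and 4 lower from MES to HEP (median -0.87, beside -0.11 for all genes and -0.39 for those at 5 or more). In this step 13.9% of all genes were lower and 3.32% higher. Among genes at 5 or more 33.9% were lower, and 4 of the 12 list genes at that level stands near this background. The lower genes were DICER1, the enzyme that cuts the precursor (5.01 to 0.92), its partner PRKRA (17.1 to 6.47), the helicase DHX9 (81.8 to 30.2) and TRIM71. TRIM71 was the 1 gene of the list that met the rule there with the GC trend removed, where 4.93% of all genes were lower. The uridylating enzymes that LIN28 is known to recruit were low, ZCCHC11 at 1.45 or less and ZCCHC6 at 4.18 or less in every library, and ZCCHC11 was listed at 0 in HEP and HPC. DIS3L2, the nuclease that degrades uridylated precursors, stayed between 5.55 and 7.35.

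TRIM71, a developmental RNA-binding protein and known let-7 target, followed the declining members. It stood at 70.1, 50.9, 13.7 and 8.78 in the 4 libraries, and its 3′UTR held 6 let-7 seed matches, more than any other searched gene at 5 or more in any library. Its log2 difference from hESC to HPC was -2.86, and -2.15 with the GC trend removed. NR6A1, a nuclear receptor with 5 matches, stood at 36.5, 20.5, 9.72 and 6.66, with -2.29 and -2.20.

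Of the 25 let-7 targets outside the members, a list that includes TRIM71 and NR6A1, 15 held a seed match in the 3′UTR searched. From hESC to HPC 8 were lower and 2 higher (median -0.63), and 4 lower and 2 higher with the GC trend removed (median -0.08). Of all genes 15.8% were lower and 4.67% higher, or 6.63% and 6.31% with the trend removed. Among genes at 5 or more 37.4% were lower (median -0.57), or 17% with the trend removed (median -0.00446). As deposited, 17 of the 25 reached 5, so their 8 lower genes stand near that background. The list did not move as one. MYCN, a growth regulator of the MYC family, stood at 26.5, 12.0, 4.93 and 49.6 and so was highest in HPC, and MYC went from 16.6 in hESC to 34.9 in HPC. THBS1, a matrix glycoprotein also made by platelets, was highest in HPC (28.2, against 8.50 or less elsewhere), while the cyclin CCND1 was highest in HEP (63.8) and lowest in HPC (11.6). No seed match stood in the 3′UTRs searched for MYCN, MYC, THBS1 and CCND1.

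Across all genes at 5 or more in any library, those with more let-7 seed matches had lower medians from MES to HEP as deposited. The median was -0.41 for 7355 genes with none, -0.45 for 662 with 1, -0.82 for 71 with 2 and -0.93 for 17 with 3 or more. Without the GC trend these medians were -0.09, -0.04, -0.26 and -0.45, so genes with 1 match lay above those with none. From hESC to MES the order ran the other way as deposited (medians of -0.18, -0.12, -0.10 and 0.10). It did so with the trend removed too (-0.02, 0.03, 0.11 and 0.26). From HEP to HPC the medians were 0.07, 0.05, 0.05 and -0.21, or 0.01, -0.03, -0.08 and -0.26 with the trend removed. From hESC to HPC with the trend removed they were -0.05, 0.03, -0.04 and -0.10, and as deposited -0.50, -0.52, -0.86 and -1.14, so over the whole course the order was seen as deposited only. The groups also differed in 3′UTR length, with medians of 876, 2275, 5171 and 5430 bases, whose part in the difference was not tested. The last group includes LIN28B, IGF2BP1 and HMGA2. Without them (14 genes) its MES to HEP median was -0.76 as deposited, above the -0.82 of genes with 2 matches. It was -0.30 with the trend removed.

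Among genes of the insulin-like growth factor axis, IGF2, whose message gave the IGF2BP family its name, took the opposite course to IGF2BP3. It stood at 0.18, 0.92 and 3.24 in the first 3 libraries and 33.2 in HPC. From HEP to HPC its log2 difference was 3.01, and 3.16 with the GC trend removed. Of the 14 genes of this list in the tables, 4 were higher and 0 lower from MES to HEP, all of them binding proteins: IGFBP2 (53.4 to 182), IGFBP4 (32.4 to 224), IGFBP6 (8.30 to 24.9) and IGFBP7 (2.53 to 10.7). All 4 were higher with the trend removed as well. In this step 3.32% of all genes were higher and 13.9% lower, or 3.65% and 4.93% with the trend removed. Among genes at 5 or more 8.1% were higher, or 9.45% with the trend removed. The receptors IGF1R and IGF2R met the rule in no comparison as deposited, with IGF1R at 6.52 or less and IGF2R between 10.1 and 19.2. IGF1R just met it from hESC to MES with the trend removed (2.68 to 6.37).

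Partners of IGF2BP proteins and the m6A machinery were lower from MES to HEP in 9 of 17 cases as deposited (median -1.20), and in 0 of 17 with the GC trend removed (median -0.23). In this step 13.9% of all genes and 33.9% of those at 5 or more were lower, or 4.93% and 12.8% with the trend removed. Of the 17, 16 reached 5 in either library as deposited. The 9 lower genes included the RNA-binding proteins SYNCRIP (37.9 to 8.75) and HNRNPU (48.7 to 13.3) and the m6A reader YTHDC1 (9.61 to 1.25). METTL3, the m6A methyltransferase, was lower from hESC to MES by both readings (61.1 to 26.2).

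Of 13 other cold shock domain and HMG chromatin proteins, which share a fold or a name with LIN28 and HMGA proteins, 9 were lower from hESC to HPC and 0 higher (median -1.78). In this comparison 15.8% of all genes were lower and 4.67% higher. Among genes at 5 or more 37.4% were lower (median -0.57). Without the GC trend 5 were lower: CARHSP1, HMGB1, HMGB3, HMGN1 and HMGN3 (median -0.92). There 6.63% of all genes and 17% of those at 5 or more were lower (median of the latter -0.00446). HMGN3, a nucleosome-binding protein, went from 155 in hESC to 58.5, 8.41 and 12.2, and HMGB3, a chromatin protein of progenitor cells, from 62.3 to 38.0, 6.89 and 5.47. Several of these families have pseudogenes whose reads they may share.

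Of 24 partners of BCL11A and other regulators of the fetal globin genes, 3 were higher and 0 lower from HEP to HPC. These were the erythroid transcription factors KLF1 (9.54 to 33.0) and GATA1 (0.61 to 41.5) and the progenitor factor MYB (2.20 to 17.7), and all 3 were higher with the GC trend removed too. In this step 3.01% of all genes were higher and 3.57% lower, or 2.67% and 3.52% with the trend removed. Among genes at 5 or more 8.99% were higher, or 7.25% with the trend removed. SOX6, a known partner of BCL11A, was at 0.04 or less in every library, and ZBTB7A, another repressor of fetal globin, was at 0.73 or less. The NuRD subunits CHD4 (34.0, 34.1, 35.0 and 36.7) and MBD3 (33.0, 53.8, 57.7 and 49.1) were present throughout and met the rule in no comparison. HDAC2, a deacetylase of the same complex, was lower from hESC to HPC by both readings (12.2 to 2.19 as deposited).

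The genes whose profiles over the 4 libraries lay closest to each member were found by Euclidean distance between centred profiles of log2(value + 1), among 8173 candidates. With 4 points a profile, many genes lie close. Nearest to LIN28A were IGSF8, DPYSL2 and CBX2 (distances 0.167, 0.168 and 0.217). Nearest to LIN28B were DMTF1, RAB18 and RNF6 (0.0754, 0.120 and 0.136), all with a GC content of 43.3% or less. SLC18B1, NLN and SLC6A15 were nearest to IGF2BP3 (0.0875, 0.0959 and 0.103), with GC contents of 39.6% to 41.1%. FAT1, INADL and ZNF532 were nearest to HMGA2 (0.131, 0.135 and 0.141). For IGF2BP1 they were CDKN1B, PRPSAP1 and ST3GAL4 (0.0334, 0.0377 and 0.0421), for IGF2BP2 SCAF8, SLC17A9 and RIC1 (0.0743, 0.0770 and 0.0810), and for HMGA1 TIMM13, EMC4 and PFDN4 (0.0461, 0.0472 and 0.0532).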

How the data were processed

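The members and gene lists were chosen with earlier results of these data known. The authors deposited a normalised signal for each gene in 1 table per library. The submitters' processing notes name the tools BWA, Bowtie and RSEM and the build hg19. Tool versions and roles, annotation, use of strand and the RSEM measure (FPKM or TPM) were not given in the sources used here. Each table had 17634 rows, and 4 rows that shared a name were left out. The kit was Illumina TruSeq RNA with 2 ug of RNA, per the labels' protocols.

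Differences were log2 differences of (value + 1), computed with Python 3.11.15 and pandas 2.3.3. GC content was the median over protein-coding transcripts of GENCODE 29 (98.9% of genes). For genes with a mean of 5 or more, each library's median log2 deviation from the gene's mean was taken in 50 GC bins, averaged over 5 neighbouring bins and divided out. This also levels the medians of the libraries. The transcript used for 3′UTR matches had the best APPRIS level, then the longest 3′UTR. GENCODE 29 is of GRCh38, so no gene coordinates are printed. The rule of size was run on simulated data with planted changes. That run does not show how the rule performs on single libraries of unknown depth. From each list, members past the rule or with a role explained were named. Values of some list genes are not reported here.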

Additional observations from a re-analysis of the deposited data

How the results depend on the processing

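Counts of members were recomputed with pseudocounts of 0.1 and 5, no minimum, a minimum of 20, a fold of 4, 3 other scalings and the GC trend removed. GC content of 1 transcript per gene was added after seeing the data. No member was higher in any comparison under any of these. LIN28A, IGF2BP3 and HMGA2 were lower from hESC to HPC under all 10 alternatives. From hESC to MES, 1 member was lower, but 2 with a pseudocount of 0.1 (IGF2BP3 added) and 0 with a fold of 4, with a common total, and with either GC correction. From MES to HEP, 3 were lower, but 1 (LIN28B) with a minimum of 20 or a fold of 4, 2 with the GC trend removed (LIN28B and HMGA2), and 0 with GC content of 1 transcript. Median-of-ratios and upper quartile scaling, which raised HEP by 0.64 and 0.58 on the log2 scale relative to hESC, left HMGA2 short of the rule there (-0.90 and -0.94). From hESC to HPC, 4 were lower, but 3 with a fold of 4 or either GC correction, which left out LIN28B. Its difference there was -0.61 with the GC trend removed and -0.19 with GC content of 1 transcript. The signs of small differences of LIN28A, IGF2BP1 and HMGA1 turned under some scalings. Over the alternatives, genes lower from MES to HEP numbered 797 to 3482 of all genes, and from hESC to HPC 1088 to 3812. Genes higher numbered 219 to 1604 and 332 to 1773. From hESC to MES they numbered 248 to 1028 higher and 121 to 977 lower, and from HEP to HPC 134 to 805 and 173 to 960. Depth is unknown, so no value has a counting error. No paired analysis was possible because each group has 1 library.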
